A study of Mus musculus with 2 samples.

Results

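The 10 genes described here encode 5 filaggrin-type proteins (Flg, Flg2, Hrnr, Rptn and Tchh) and 5 enzymes that act on such proteins. The enzymes are the peptidylarginine deiminases Padi1, Padi2 and Padi3 and the proteases Casp14 and Asprv1. They were taken by symbol from a table of 44166 genes, all 10 had a row, and 9 of them reached an FPKM (fragments per kilobase, a level corrected for transcript length and library depth) of 1 in at least 1 library. The samples were whole skin of 3-day-old C57BL/6 mice, with 1 library labelled KO for the genotype RNF31fl/fl-K14-cre and 1 library labelled WT for the wildtype. In the first, both copies of Rnf31 (the gene of HOIP, which builds linear ubiquitin chains) carry loxP-flanked alleles, and Cre recombinase is driven by the promoter of keratin 14, which is active in basal keratinocytes and in the cells of the skin epithelium that descend from them. The comparison asks how transcripts of neonatal skin differ when Rnf31 is targeted in keratinocytes.

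Filaggrin-type proteins carry a calcium-binding S100-like head fused to a long run of tandem repeats, and their genes lie side by side in the epidermal differentiation complex. Profilaggrin is stored in the keratohyalin granules of the granular layer, is cut into filaggrin units that bundle keratin filaments, and is broken down to amino acids that hold water in the cornified layer. Deiminases convert arginine to citrulline in filaggrin and in trichohyalin, the Tchh product, which hardens the inner root sheath and medulla of the hair follicle.

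Depth was 20511407 reads for the KO-labelled library (93.59% aligned) and 19619928 for the WT-labelled library (92.56% aligned). With 1 library a genotype there was no replicate spread and no test between genotypes, so "higher" and "lower" describe these 2 libraries and have no replicate check. The targeted gene did not check the labels, since Rnf31 was at an FPKM of 5.4 in the KO-labelled library and 3.95 in the WT-labelled library (ratio 1.36), and the libraries are therefore called by their labels. A gene-level value also counts exons outside any deleted part and cells without Cre. In whole skin, fewer cells of a type and less RNA per cell cannot be told apart. Keratinocyte markers differed between the 2 libraries, not all in one direction. Past 2-fold, 7.59% of all genes that reached an FPKM of 1 were higher in the KO-labelled library and 4.09% lower. Of 7 basal keratinocyte genes, 5 were higher and 1, Krt15, was lower, at an FPKM of 97.1 in the KO-labelled library and 225.5 in the WT-labelled library. The summed FPKM of the 7 was 15950 in the KO-labelled library and 2192 in the WT-labelled library, of which Krt14 held 12590 and 816 in the libraries labelled KO and WT. The 11 pan-epithelial junction, splicing and trafficking genes summed to 4175 and 2353 in the libraries labelled KO and WT, with a median log2 ratio of 0.53 and 1 of them past 2-fold. The part of these shifts in the member values was not tested.

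The 5 filaggrin-type members carry sequence that recurs within the transcript. The following 50-base windows are the most frequent in the longest annotated transcript of each gene (GENCODE M21, GRCm38, all on the plus strand of chromosome 3), shown because they bear on how reads can be placed.
Flg, chr3:93281865-93281914: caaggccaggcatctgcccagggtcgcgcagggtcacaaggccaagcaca
Flg2, chr3:93203941-93203990: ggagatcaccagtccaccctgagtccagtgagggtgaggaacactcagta
Hrnr, chr3:93323713-93323762: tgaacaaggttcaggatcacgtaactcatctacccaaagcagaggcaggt
Rptn, chr3:93397036-93397085: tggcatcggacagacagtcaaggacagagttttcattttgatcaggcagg
Tchh, chr3:93445700-93445749: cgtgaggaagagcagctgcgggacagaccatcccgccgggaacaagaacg
Each coordinate is that of a copy inside annotated coding sequence. The window occurs 17 times in the Flg transcript, of which 7 copies lie in annotated coding sequence, and 55 times in Flg2, of which 10 do. It occurs 16 times in Hrnr, 5 times in Tchh and 3 times in Rptn, all of these in annotated coding sequence. Of all 50-base windows, 79.2% recur within the Flg transcript, 65.3% within Flg2 and 69.1% within Hrnr, against 10.1% in Tchh and 5.49% in Rptn, and 0% in Tchhl1 and Crnn, the remaining 2 genes of the family. No window of these 5 transcripts was found in a transcript of another gene. Casp14 and Asprv1 had no window that recurs, within the transcript or elsewhere, while 0.378% of the Padi1 windows, 0.995% of the Padi2 windows and 1.17% of the Padi3 windows occur in transcripts of other genes. For Padi1 and Padi3 these include each other. Transcripts were searched in the sense direction only. Sequence shared with a gene on the opposite strand, such as that of Padi1 with Gm13032, is therefore not counted in any of these shares. The sources used here do not give the handling of reads with several placements, so levels of Flg, Flg2 and Hrnr are less certain than those of Rptn, Tchh and the proteases, while Flg is also annotated as 10 partly separate transcripts.

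Repetin was far higher in the KO-labelled library, the hornerin, SASPase and caspase-14 genes were several-fold higher, filaggrin and trichohyalin differed by less than 2-fold, filaggrin 2 was lower, and the epidermal deiminases were inside the 2-fold rule. The measure was a log2 ratio, KO over WT, of FPKM with a pseudocount of 1, and a gene counted as higher or lower at a log2 ratio of at least 1 or at most -1. A ratio given without log2 is of FPKM without the pseudocount, so the 2 measures differ for genes with low levels. Of the 9 members above the floor, 4 were higher (Hrnr, Rptn, Casp14, Asprv1), where 7.59% of all 14541 genes above it were, and 1 was lower (Flg2), where 4.09% of all genes were. The median of the 9 was 0.58, beside -0.08 for all genes. Nearest to the rule, Padi3 at -0.84 was inside it and Flg2 at -1.11 outside it. In the authors' deposited table, 0 of the 9 members tested had a q-value under 0.05, as 0.616% of 15589 tested genes did, and the lowest q-values of the members were 0.302 for Casp14 and 0.343 for Asprv1. That test compares the 2 libraries, not the genotypes.

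**Figure D1:**
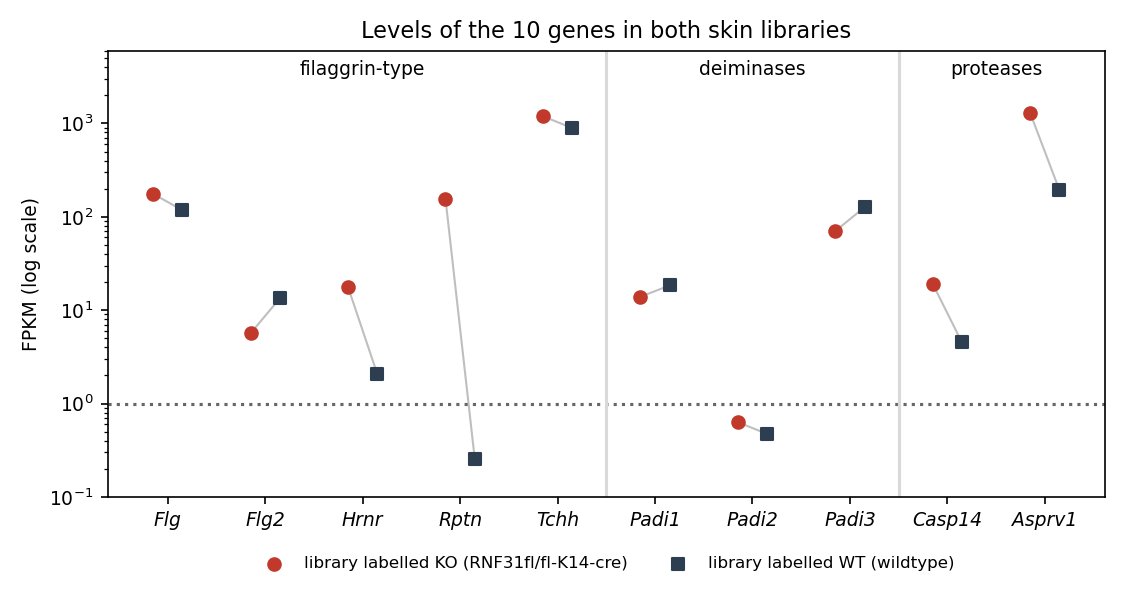
FPKM (log scale) of each of the 10 genes, with a red circle for the KO-labelled library left of a dark square for the WT-labelled library. The line between them is steepest for Rptn (156 and 0.257), and Padi2 lies under the dotted floor of 1 in both libraries.

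**Figure D2:**
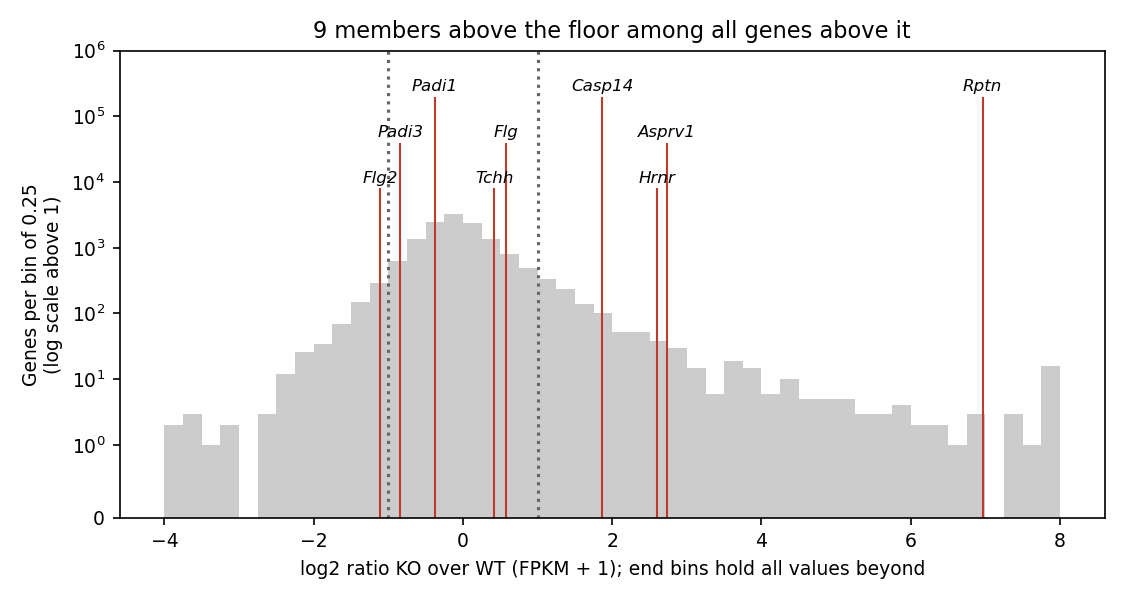
Number of genes per bin of the log2(FPKM + 1) ratio of KO over WT for the 14541 genes above the floor, with red lines at the 9 members above it and dotted lines at the 2-fold rule. Rptn lies at 6.96, the next members at 2.74 (Asprv1), 2.60 (Hrnr) and 1.87 (Casp14), and Flg2 at -1.11.

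Among the structural proteins, repetin (Rptn), a cornified envelope precursor that in mice is prominent in stratified epithelia such as tongue and forestomach, differed most. Rptn (ENSMUSG00000041984, chromosome 3, 93393699 to 93399442) had an FPKM of 156 in the KO-labelled library and 0.257 in the WT-labelled library. That is a ratio of 606 without the pseudocount, and its log2 ratio of 6.96 with it was the 21st highest of the 14541 genes. The wildtype level rested on about 17 estimated fragments, so the 95% counting interval of the ratio was wide, 369 to 1015. Such intervals are exact binomial (Clopper-Pearson) on fragments estimated from FPKM and the longest transcript, and cover counting error at most. In the KO-labelled library the Rptn level was close to that of Flg (0.885 of it), whereas in the WT-labelled library it was 0.00219 of it.

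Hornerin (Hrnr), a repeat protein of the same build that is found in keratohyalin granules, had an FPKM of 17.7 in the KO-labelled library and 2.08 in the WT-labelled library. Its ratio was 8.52 (7.64 to 9.53) without the pseudocount, and its log2 ratio was 2.60 with it. The order of Hrnr and Rptn was thus turned round between the libraries, with Rptn 8.82 times Hrnr in the KO-labelled library and 0.124 times Hrnr in the WT-labelled library.

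Filaggrin itself (Flg, ENSMUSG00000102439, chromosome 3, 93273523 to 93293686) was at 176 in the KO-labelled library and 117 in the WT-labelled library, a ratio of 1.5 (1.48 to 1.52) and inside the 2-fold rule. Filaggrin 2 (Flg2), which overlaps with filaggrin in location and in being deiminated and degraded, went the other way. Its FPKM was 5.65 in the KO-labelled library and 13.4 in the WT-labelled library, a ratio of 0.423 (0.401 to 0.447). With a pseudocount of 5 its log2 ratio was -0.79, inside the rule. Flg was 31.2 times Flg2 in the KO-labelled library and 8.79 times Flg2 in the WT-labelled library.

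Trichohyalin (Tchh, ENSMUSG00000052415, chromosome 3, 93442330 to 93449077) had an FPKM of 1194 in the KO-labelled library and 892 in the WT-labelled library, a ratio of 1.34 (1.33 to 1.35). It made up 77.1% of the summed FPKM of the 5 filaggrin-type genes in the KO-labelled library and 87.0% in the WT-labelled library. The share of Rptn in that sum was 10.1% in the KO-labelled library and 0.0251% in the WT-labelled library, while that of Flg was nearly equal, at 11.4% and 11.5% in the libraries labelled KO and WT. Without Tchh, the other 4 summed to 355 in the KO-labelled library and 133 in the WT-labelled library.

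Because trichohyalin is a product of the inner root sheath, keratins of that layer were set beside it. All 8 inner root sheath keratins had log2 ratios below 0, as did 8345 of all 14541 genes above the floor. Their median was -0.67, beside -0.08 for all genes. Past the 2-fold rule 3 were lower, where 4.09% of all genes were, and 0 were higher. Krt71 was at 3172 in the KO-labelled library and 3208 in the WT-labelled library, and Krt25 at 2186 and 2275, so both were close to equal, whereas Krt28 had the lowest log2 ratio, -1.67, with 160 in the KO-labelled library and 509 in the WT-labelled library. The FPKM of Tchh was 0.376 of that of Krt71 in the KO-labelled library and 0.278 of it in the WT-labelled library. Of 8 hair shaft keratins 7 were measured, and all 7 of these were lower, beside the same 4.09% of all genes. Their median was -1.32, with Krt35 lowest (113 in the KO-labelled library and 616 in the WT-labelled library).

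The remaining 2 genes of the family were not higher. Cornulin (Crnn), a filaggrin-type protein of squamous epithelia, was at 36.8 in the KO-labelled library and 80.8 in the WT-labelled library (ratio 0.455), past the 2-fold rule. Trichohyalin-like 1 (Tchhl1) was at 14.2 and 15.5 in the libraries labelled KO and WT (ratio 0.921, 0.81 to 1.05), an interval that includes equal levels. In chromosomal order the 7 genes span 327 kb, and neighbours did not share one ratio. The log2 ratios ran -1.11 (Crnn), -1.11 (Flg2), 0.58 (Flg), 2.60 (Hrnr), 6.96 (Rptn), 0.42 (Tchh) and -0.11 (Tchhl1). The starts of Rptn and Tchh lie 48.6 kb apart, and their log2 ratios differed by 6.54.

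**Figure D3:**
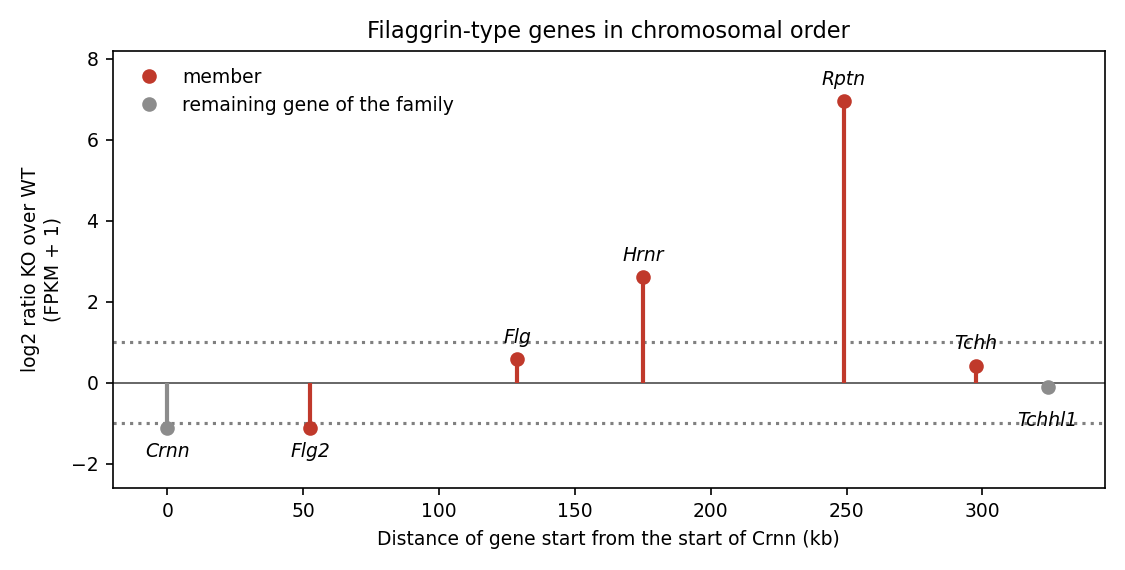
Log2(FPKM + 1) ratio of KO over WT against the distance of each gene's start from the start of Crnn (kb) for the 7 filaggrin-type genes, in red for members and in grey for the remaining genes, with dotted lines at the 2-fold rule. The ratio is below 0 for Crnn and Flg2, highest for Rptn (6.96) and near 0 again for Tchh (0.42) and Tchhl1 (-0.11).

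Hrnr, Rptn and Tchh carry 1 common locus in the deposited table, 159 kb long with 8 genes. The lincRNA Gm37245 spans all 3 on the opposite strand, but its exons share 0 bases with theirs. It was listed at 0 in the KO-labelled library and at 0.054 in the WT-labelled library. Gm37857, on the same strand, shares 45 of the 4146 exon bases of Rptn and was at 0.122 in the KO-labelled library and listed at 0 in the WT-labelled library. In the authors' deposited table the q-values of the 3 genes were not under 0.05, and neither were those of the other members tested. Without these 3 genes, 2 members were higher and 1 lower.

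The promoters of the family were compared because its members differed in opposite directions. All 10 members were found in the RefSeq promoter table (GRCm38.p6, from 250 bases before to 50 after each start). An AP-1 type motif, TGANTCA, which reads the same on both strands, was found in 5 of the 7 filaggrin-type promoters, at -103 (Flg), -69 (Flg2), -96 (Rptn), -87 (Tchhl1) and -96 (Crnn) from the start. Of all 32851 promoters in the table, 7.81% hold it. The pattern leaves the middle base open, where the AP-1 consensus has C or G. None of the 5 matches has C or G there, so none is a consensus site. As printed, that base was A in Flg, Flg2, Tchhl1 and Crnn and T in Rptn. TGATTCA is TGAATCA read on the other strand, so all 5 hold the same bases in 1 or the other direction. The 40 bases from 10 before each match are shown with the match in capitals, all on the plus strand.
Flg, chr3:93273433-93273472: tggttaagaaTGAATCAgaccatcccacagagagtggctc
Flg2, chr3:93197194-93197233: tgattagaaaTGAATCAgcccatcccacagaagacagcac
Rptn, chr3:93393593-93393632: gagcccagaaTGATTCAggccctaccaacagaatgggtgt
Tchhl1, chr3:93468657-93468696: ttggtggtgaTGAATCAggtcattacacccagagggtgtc
Crnn, chr3:93144683-93144722: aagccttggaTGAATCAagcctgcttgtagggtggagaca
Over these 40 bases, Flg2 matched Flg at 30 positions, Tchhl1 at 25, Rptn at 21 and Crnn at 18, without gaps. The holders of the motif included the member with the highest log2 ratio and the member with the lowest. Whether these letters bear on the ratios was not tested. Among the enzymes, Padi1, Padi2, Padi3, Casp14 and Asprv1 had no match in this window, nor did Hrnr and Tchh. Thus 3 of the 10 members held a match. Of the deiminase genes outside the members, Padi4 held one at -54 (TGACTCA) and Padi6 held none. An NF-kB type motif, GGG, then any 2 bases, then TTTCC, searched on both strands, was in 0 of the 10 member promoters and in 1.63% of all promoters. A match is a description of sequence and not a bound site.

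The full promoters of Rptn and Tchh, the neighbours whose ratios lay farthest apart, are shown on the plus strand with the AP-1 type match of Rptn in capitals.
Rptn, chr3:93393449-93393748: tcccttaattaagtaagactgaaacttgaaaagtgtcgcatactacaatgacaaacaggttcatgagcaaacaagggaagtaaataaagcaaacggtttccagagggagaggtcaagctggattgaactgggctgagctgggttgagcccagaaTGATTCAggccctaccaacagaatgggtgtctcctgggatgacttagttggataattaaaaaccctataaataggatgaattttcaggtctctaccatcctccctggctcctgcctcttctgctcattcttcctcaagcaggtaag
Tchh, chr3:93442080-93442379: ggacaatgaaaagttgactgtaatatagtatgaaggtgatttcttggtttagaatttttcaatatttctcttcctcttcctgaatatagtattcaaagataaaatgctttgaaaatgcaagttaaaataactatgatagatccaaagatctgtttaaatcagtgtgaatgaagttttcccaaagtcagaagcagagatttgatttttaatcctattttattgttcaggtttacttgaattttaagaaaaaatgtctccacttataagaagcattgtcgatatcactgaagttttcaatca

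Both deiminase members above the floor had log2 ratios below 0 and inside the 2-fold rule. Of all 14541 genes above the floor, 8345 had log2 ratios below 0. Padi3, the isoform of hair follicle and upper epidermis that modifies trichohyalin, was the most abundant, at an FPKM of 70.2 in the KO-labelled library and 126 in the WT-labelled library (ratio 0.555, 0.533 to 0.578). Padi1, the main isoform of the living epidermal layers, was at 13.9 in the KO-labelled library and 18.4 in the WT-labelled library (ratio 0.756, 0.69 to 0.829). Their log2 ratios were -0.84 and -0.38, and neither counting interval includes equal levels, before any variation between animals. Padi1 shares 1200 of its 3754 exon bases with Gm13032 on the opposite strand, which was at 0.529 in the KO-labelled library and 2.2 in the WT-labelled library. The library kit kept strand, but the sources used here do not give whether counting used it.

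Padi2, the most widely expressed isoform, with known sites in muscle, glia and macrophages, was under the floor in both libraries, at 0.632 in the KO-labelled library and 0.472 in the WT-labelled library. Its ratio of 1.34 had a counting interval of 0.844 to 2.12, so no difference was detectable at this depth. Of 8 macrophage and monocyte markers 6 were higher and 0 lower, with a summed FPKM of 454 in the KO-labelled library and 178 in the WT-labelled library. Of 8 skeletal muscle genes 2 were higher and 1 lower, with sums of 8043 in the KO-labelled library and 6797 in the WT-labelled library. The part of either cell type in the Padi2 value was not tested. The 2 remaining genes of the deiminase family were Padi4 and Padi6, of which the first is known from granulocytes and the second from oocytes. Padi4 was at 5.7 in the KO-labelled library and 9.64 in the WT-labelled library (ratio 0.592), and Padi6 was listed at 0 in the KO-labelled library and at 0.0306 in the WT-labelled library. The neutrophil list summed to 42.3 in the KO-labelled library and 4.03 in the WT-labelled library, with 3 of 4 genes above the floor higher. Its granule enzymes Elane and Mpo were under the floor in both libraries, and the WT-labelled library listed Ngp, Retnlg and Csf3r at 0. The share of neutrophils in the Padi4 value was not tested. Padi3 held 77.6% of the Padi1 to Padi4 sum in the KO-labelled library and 81.6% in the WT-labelled library, so the makeup of the family was similar while its sum was lower. The level of Padi3 relative to Tchh was 0.0588 in the KO-labelled library and 0.142 in the WT-labelled library.

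Both proteases were higher in the KO-labelled library. Asprv1 (ENSMUSG00000033508, chromosome 6, 86628164 to 86629710), the gene of SASPase, an aspartic protease that in mice cuts the linkers of profilaggrin, was at 1291 in the KO-labelled library and 193 in the WT-labelled library. Its ratio was 6.69 (6.49 to 6.9), and it was the most abundant of the 10 genes in the KO-labelled library, where it ranked 89 of 14541 genes by FPKM, against 493 in the WT-labelled library. Casp14 (ENSMUSG00000005355), the gene of a caspase of cornifying keratinocytes whose loss in mice leaves filaggrin fragments undegraded, was at 19.1 in the KO-labelled library and 4.51 in the WT-labelled library, a ratio of 4.23 (3.56 to 5.04). Relative to their substrate, Asprv1 was 7.33 times Flg in the KO-labelled library and 1.64 times Flg in the WT-labelled library, and Casp14 was 0.108 times Flg in the KO-labelled library and 0.0384 times Flg in the WT-labelled library.

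Order of level within each library followed from these values. In the KO-labelled library the order was Asprv1, Tchh, Flg, Rptn, Padi3, Casp14, Hrnr, Padi1, Flg2 and Padi2. In the WT-labelled library it was Tchh, Asprv1, Padi3, Flg, Padi1, Flg2, Casp14, Hrnr, Padi2 and Rptn. With 1 library each, whether neighbours in these orders differ beyond their spread cannot be judged. The 10 genes held 0.396% of all FPKM in the KO-labelled library and 0.203% in the WT-labelled library.

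Partners of filaggrin processing and breakdown, outside the 10 members, were higher or inside the 2-fold rule. Of 11 partners, all above the floor, 4 were higher and 0 lower, with a median log2 ratio of 0.56. The kallikrein proteases of desquamation Klk5 and Klk7 were higher, with Klk5, which can also cut profilaggrin linkers, at 155 in the KO-labelled library and 23.2 in the WT-labelled library, and Klk7 at 674 and 118 in the libraries labelled KO and WT. Spink5, the gene of their inhibitor LEKTI, was at 149 in the KO-labelled library and 12.7 in the WT-labelled library (ratio 11.7), a larger ratio than that of either protease (6.69 and 5.73). Klk14, a further kallikrein, was at 1.02 and 0.314 in the libraries labelled KO and WT, the second on about 6 estimated fragments.

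Blmh, the gene of bleomycin hydrolase, which frees amino acids from citrullinated filaggrin peptides, was at 191 in the KO-labelled library and 73.5 in the WT-labelled library (ratio 2.61). Capn1, the gene of the calcium-dependent protease calpain 1, which acts before it, had a ratio of 1.21. Hal, the gene of histidase, which turns the histidine of broken-down filaggrin into urocanic acid, was at 13.8 in the KO-labelled library and 15.9 in the WT-labelled library. The convertases Furin and Pcsk6, which release the head of profilaggrin, had ratios of 1.49 and 1.48. The channel-activating protease gene Prss8 had a ratio of 1.17, and St14, the gene of matriptase, which is needed for profilaggrin processing in mice, was at 62.8 in the KO-labelled library and 123 in the WT-labelled library (log2 ratio -0.96, just inside the rule). The steps of the pathway thus did not share one ratio. Of 9 cornified layer partners, among them keratins, transglutaminases and envelope proteins, 8 were above the floor. Of these 8, 4 were higher and 1 lower. Ivl had the highest log2 ratio (2.88) and Krt10, a keratin that filaggrin bundles, the lowest (-1.84).

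**Figure D4:**
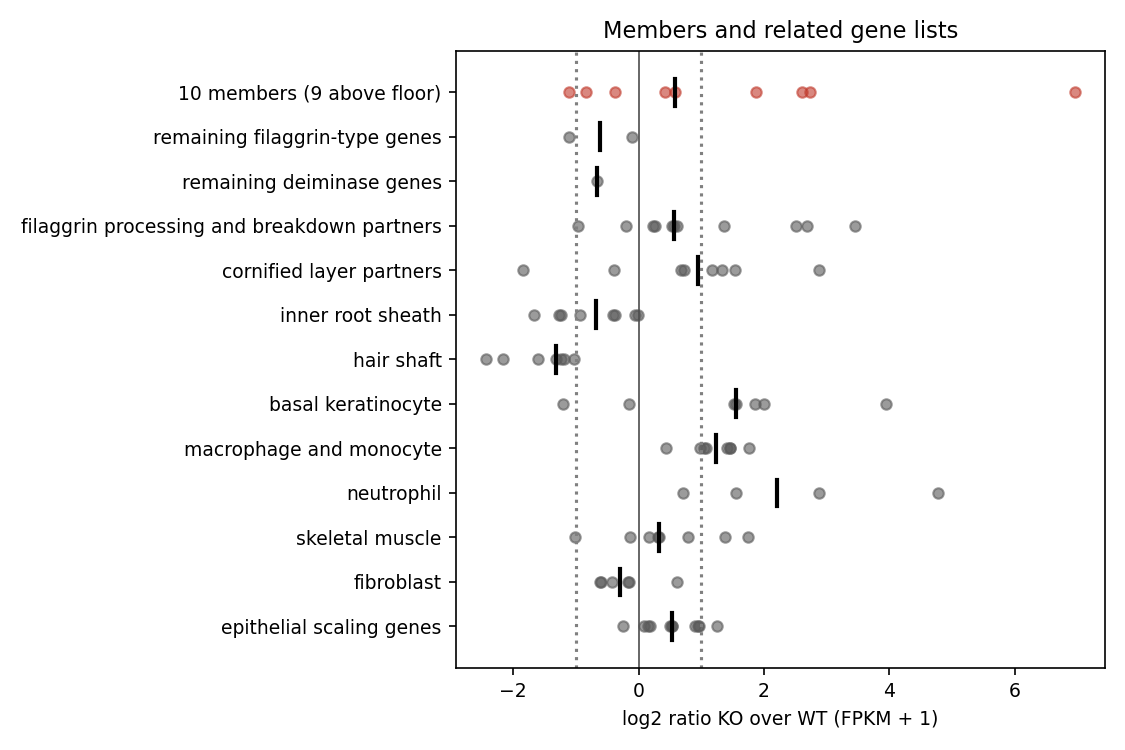
Log2(FPKM + 1) ratio of KO over WT for each gene above the floor in each list, with a black bar at the list median and dotted lines at the 2-fold rule. The 9 members spread from -1.11 to 6.96, the partners of filaggrin processing from -0.96 to 3.45, and all 7 measured hair shaft keratins lie below -1.

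Another scaling lowered the log2 ratios of all 10 members. When libraries were scaled so that the median ratio of the 11 pan-epithelial genes was 1, Flg had a log2 ratio of 0.05 and Tchh of -0.12, Padi1 of -0.88 and Padi3 of -1.37, which put Padi3 past the rule. Hrnr, Rptn, Casp14 and Asprv1 stayed higher under that scaling, at 2.16 (Hrnr), 6.64 (Rptn), 1.39 (Casp14) and 2.2 (Asprv1), and Flg2 was at -1.59. Of all 14673 genes above the floor under that scaling, 4.46% were higher and 15.2% lower.

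**Figure D5:**
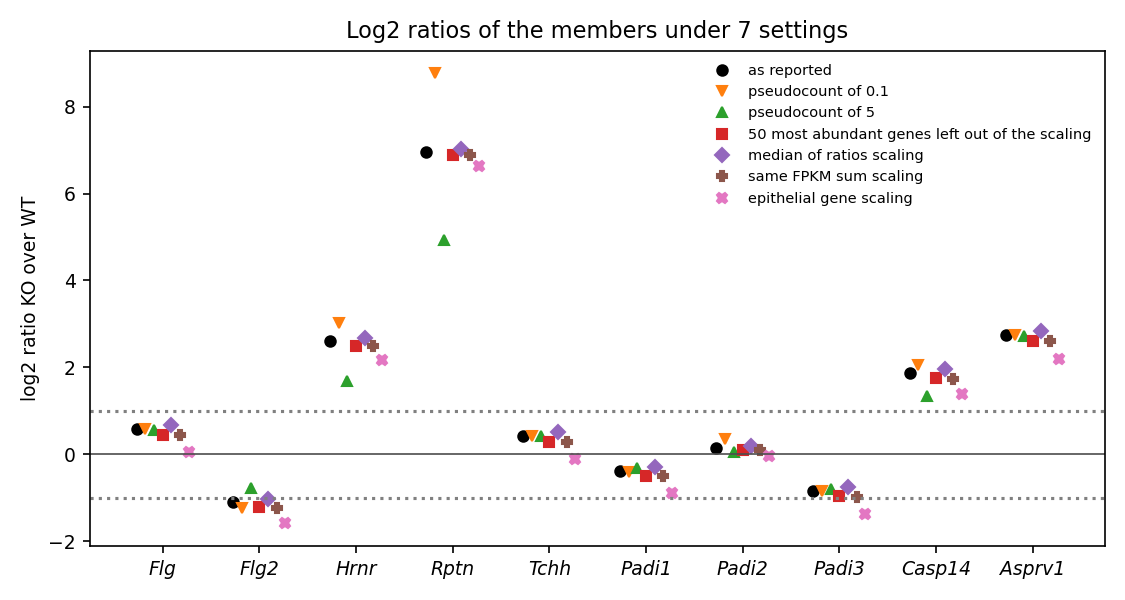
Log2 ratio of KO over WT of each of the 10 genes as reported (black circles) and under 6 other pseudocounts or scalings, with dotted lines at the 2-fold rule. Rptn ranges from 4.94 to 8.77, Flg and Tchh come close to 0 under the epithelial gene scaling, and Flg2 lies between -1.59 and -0.79.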

How the data were processed

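Whole skin of 3-day-old mice was sequenced as 1 library per genotype, and the sources used here do not give the animals per library. Groups follow the genotype labels. Per the labels' protocols, libraries were made with a directional kit. The submitters' processing notes name cutadapt 1.9.1, HISAT2 2.0.4, Cufflinks 2.2.1 and the build GRCm38. The main deposited table has Cuffdiff columns, per the file headers, with 1 FPKM per gene and library computed by the authors, and their p-value and q-value. A deposited sheet gives the read count and the fraction of reads aligned per library.

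The members and lists were chosen with earlier results of these data known. Named genes are the 10 members, the 2 family lists and the processing partners, the extremes of the other lists past the rule, and Rnf31. Krt71, Krt25, overlapping genes, and neutrophil and envelope genes outside that rule were named after their values were seen.

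The log2 ratio used a pseudocount of 1, which understates differences of low genes, and a floor of FPKM 1 in at least 1 library. Fragments were estimated from the step between low FPKM values, read from genes annotated with 1 transcript, 3000 bases or longer. In the KO-labelled library 75.6% of 401 values, and in the WT-labelled library 77.6% of 406, fell within 0.25 of a whole step. The step was chosen on these same values, so the share by chance is above the 50% of a step fixed beforehand. An FPKM of 1 over a 2 kb transcript is then about 32.0 fragments in the KO-labelled library and 31.1 in the WT-labelled library. Intervals (95%) leave out variation between animals, and reads are not independent molecules. Software was Python 3.11.15 with pandas 2.3.3 and scipy 1.17.1. Krt85 was not analysed here.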

Additional observations from a re-analysis of the deposited data

How the results depend on the processing

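All 4 higher members stayed higher under each of 8 alternative settings, where 3.63% to 10.2% of all genes counted were higher. The 2 settings that changed only the floor could not alter the count of higher members, since these 4 pass either floor. With the 3 genes of the shared locus left out, chosen after seeing the data, the count was 2. The count of lower members was 0 with a pseudocount of 5, where Flg2 was at -0.79, and 2 under the epithelial gene scaling, where Padi3 joined Flg2. Under these settings, 1.13% (pseudocount of 5) and 15.2% (epithelial gene scaling) of all genes above the floor were lower. Over all genes, 528 were higher and 165 lower with a pseudocount of 5, 654 and 2235 under the epithelial gene scaling, 1085 were lower with a pseudocount of 0.1, and 360 were lower with a floor of FPKM 5, beside 1103 and 595 as reported. Of the genes past the rule, 65.0% were higher as reported, 76.2% with a pseudocount of 5 and 71.3% under median of ratios scaling. The share was 54.5% when scaled without the 50 most abundant genes, 53.4% with equal FPKM sums and 22.6% under the epithelial gene scaling. The last 3 scalings (50 genes left out, equal sums, epithelial) moved the median of all genes by -0.12, -0.12 and -0.47. Median of ratios scaling moved it by 0.09. The cause of these differences between settings was not tested. The count of higher processing partners ranged from 3 to 5. The count of lower partners was made only as reported, where St14 at -0.96 lay just inside the rule. Under the epithelial gene scaling Tchh was at -0.12 and Padi2 at -0.04, below 0, unlike under the remaining settings. No paired analysis was possible because each genotype has 1 library, and for the same reason no library could be left out. Low estimated fragment counts limit Padi2 (48 in the KO-labelled library and 35 in the WT-labelled library), the wildtype levels of Rptn and Klk14, and the genes under the floor such as Elane, Mpo, Krt2 and Padi6.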

Other observations

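Transglutaminases, which crosslink filaggrin-type proteins and trichohyalin into the cornified envelope and the hair follicle sheaths, were measured beside them. Tgm1, the enzyme of the epidermal envelope, was at 118 in the KO-labelled library and 46.4 in the WT-labelled library, and Tgm5 at 6.58 and 2.36 in the libraries labelled KO and WT, both past the 2-fold rule. Tgm3, which acts on trichohyalin, was at 16.9 in the KO-labelled library and 9.78 in the WT-labelled library, a ratio of 1.73 that stayed inside it. Cdsn, the gene of corneodesmosin, a glycoprotein of cell junctions in the cornified layer, was at 429 in the KO-labelled library and 147 in the WT-labelled library. Krt2, a late keratin of the upper epidermis, was under an FPKM of 1 in both libraries, at 0.133 in the KO-labelled library and 0.347 in the WT-labelled library. These genes were named after their values were seen.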
